A study of Oryza sativa with 8 samples.

Results

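The heat shock factors and large chaperones of rice were followed in bulk RNA-seq of intact and digested roots. The set held 41 of the 55986 loci listed in the count files, taken as a fixed list of identifiers of release 7 of the Michigan State University (MSU) rice annotation: 25 heat shock factors (Hsf), HSP101, 4 members of the HSP90 family and 11 of the HSP70 family. The family of a locus was read from the order of that list, because neither the count files nor the reference name table annotates these identifiers. Only OsHsfA2c (LOC_Os10g28340), OsHsfB2b (LOC_Os08g43334), OsHsfC1b (LOC_Os01g53220) and HSP101 (LOC_Os05g44340) came with a name of their own, and every other member is given by its locus.

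Heat shock factors are transcription factors that assemble into trimers and bind heat shock elements in the promoters of chaperone genes. Plants have many of them, grouped in classes A, B and C, of which class A members are known as activators and many class B members as repressors or helpers of class A. Their best known targets are chaperones. HSP70 binds unfolded stretches of proteins, HSP90 matures signalling proteins and holds some heat shock factors inactive, and HSP101 pulls proteins out of aggregates together with HSP70 and is needed for acquired heat tolerance in plants.

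Both groups were roots of Xkitaake, the Kitaake line that carries the XA21 transgene under the maize ubiquitin promoter and that the labels call wild type, so all 8 libraries shared the transgene. The labels state that seedlings on gelled nutrient solution germinated in darkness at 4 °C over 2 to 3 days. Seedlings then grew for 1 to 3 more days in a chamber at 28 °C. The paper's Methods give a much warmer temperature for germination in the dark, so the 4 °C of the labels is uncertain. The 4 intact samples were frozen as harvested, whereas the 4 digested samples were roots after enzymatic removal of cell walls and held protoplasts together with pieces that had not come apart. The comparison asks which of these genes differ once roots have been digested, as is done before single cells are sequenced. The labels do not say whether the replicates came from separate seedling pools, so p-values measure only the spread between these samples.

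Libraries were of the QuantSeq type, which yields 1 tag from the 3′ end of a transcript, so levels of different genes can be compared without correction for length. Intact libraries held 2333236 to 3595349 counts on genes and digested libraries 115006 to 471019, so that 1 count stood for 0.249 to 0.407 CPM (counts scaled to the same library size, with edgeR's TMM factors) in intact and for 2.46 to 9.29 CPM in digested roots. Digested replicate 3 was the shallowest, followed by digested replicate 4. Reads aligned at more than 1 place, which were not counted, made up 3.93% to 5.36% of intact and 13.0% to 24.3% of digested libraries, and members with near-identical copies are therefore uncertain. The labelled tissue was checked with 58 root markers of 12 cell types. All 58 had a count in intact roots and 52 in digested roots, the 6 without one being 3 of trichoblasts, 1 of exodermis and 2 of phloem. Among the 47 tested markers 28 were lower and 1 higher in digested roots, against 18.5% lower and 20.0% higher of all tested genes. The summed trichoblast markers lay at 496 to 659 CPM in intact and 83.3 to 195 CPM in digested libraries, the vascular ones at 491 to 762 and 114 to 295 CPM, and the meristem ones at 283 to 397 and 270.4 to 427 CPM. In bulk samples fewer cells of a type and less RNA per cell cannot be told apart, and the part that the make-up of the samples had in the results was not tested.

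More of the tested heat shock factors than of the large chaperones were called higher in digested roots. Enough counts for a test were present for 26 of the 41 members, of which 12 were higher in digested roots at an adjusted p under 0.05 (edgeR's quasi-likelihood test, Benjamini-Hochberg over all 13104 tested genes), 1 was lower and 13 were not called. Over all tested genes 20.0% were higher and 18.5% lower, and 38.5% were called in either direction. Among the heat shock factors 9 of 15 tested loci were higher (60%) and 0 lower. At an unadjusted p under 0.05, 0 of the 15 were lower, and 0 were called lower by DESeq2 or limma-voom. Among the large chaperones 3 of 11 were higher (27.3%), near the share of all genes, and 1 was lower. The difference between the families was not tested. An increase of at least 2 on the log2 scale was found in 7 members, all of them heat shock factors, against 9.06% of all tested genes, and a decrease of that size in 0, against 7.80%. The median log2 fold change was 1.76 for the tested heat shock factors, 0.12 for the tested chaperones and -0.06 for all tested genes. With total counts in place of TMM factors the values of all genes shifted by -0.31 on the log2 scale and 15.6% were called higher and 28.4% lower, while 10 members were higher and 2 lower. The members that could be tested are those with enough counts in as many libraries as a group holds. A locus may reach this through its level in digested roots alone. LOC_Os05g45410, OsHsfB2b and LOC_Os04g48030 did so, because their intact levels were too low for the filter. LOC_Os07g08140, with more counts in intact roots, was left untested. The share of 60% higher and the 0 lower therefore depend in part on the filter.

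**Figure D1:**
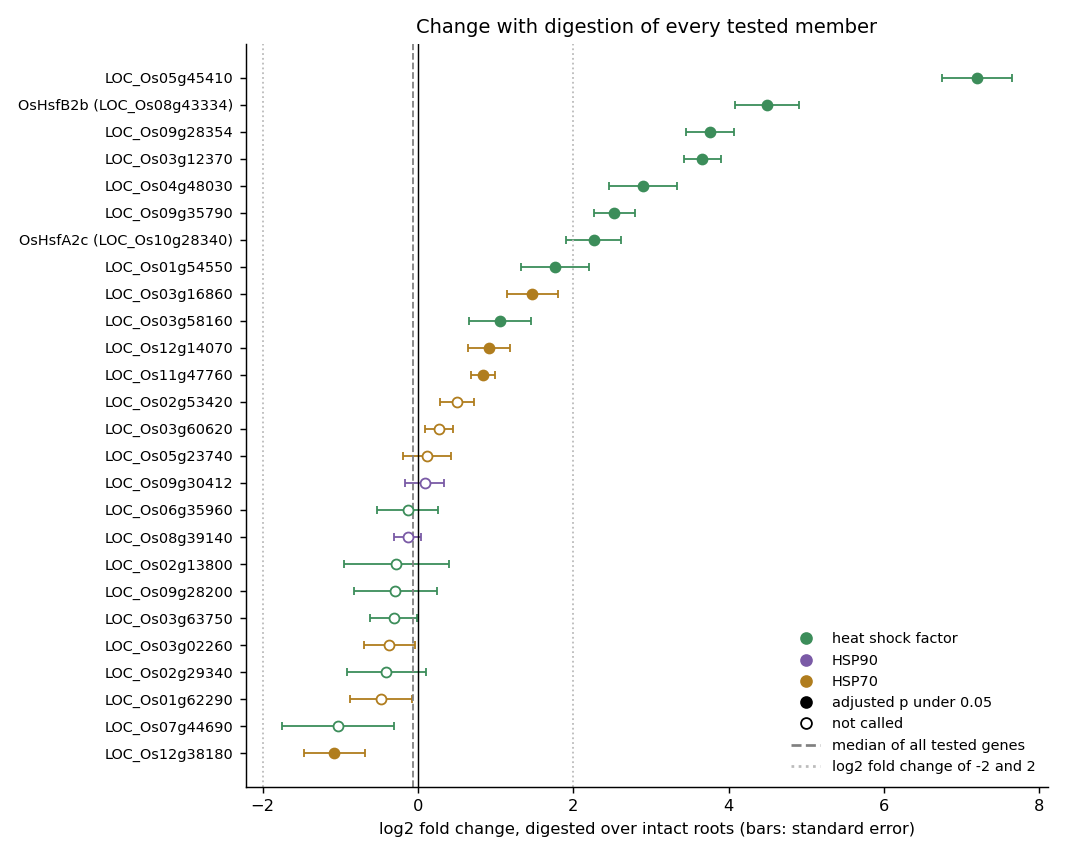
Log2 fold change (digested over intact roots, x axis) of the 26 tested members, 1 row per locus, coloured by family, with bars for the standard error. Filled points have an adjusted p under 0.05, and the grey dashed line is the median of all tested genes (-0.06). The 7 points to the right of 2 are all heat shock factors, and both HSP90 loci lie next to 0.

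The largest increase among the tested members was that of the heat shock factor locus LOC_Os05g45410, which was almost absent from intact roots. Its level was 0, 0.813, 0.718 and 0.748 CPM in intact replicates 1 to 4 and 78.9, 133, 37.2 and 106 CPM in digested replicates 1 to 4. Every digested library lay far above every intact one, including digested replicate 3, where the value rests on 4 counts. The log2 fold change was 7.20 (SE 0.45, adjusted p = 2.15e-13), the 95th highest of the 13104 tested genes. LOC_Os05g45410 passed the filter for the test through its digested level alone. In pooled counts, 7 in intact and 90 in digested roots, the locus was 177-fold higher, with a 95% counting interval of 82.5-fold to 453-fold.

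OsHsfB2b, a class B factor, came next among the tested members. It stood at 2.88, 2.44, 3.23 and 2.24 CPM in intact and at 78.9, 36.9, 121 and 37.9 CPM in digested roots. Intact libraries were close to each other, the digested ones differed by up to 3.28-fold and the groups did not overlap. The log2 fold change was 4.49 (SE 0.41, adjusted p = 5.55e-10). OsHsfB2b also passed the filter through its digested level alone.

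OsHsfA2c, a class A factor, was more abundant than OsHsfB2b in intact roots and had a smaller log2 fold change. Its level was 15.8, 11.4, 7.18 and 7.98 CPM in intact and 57.0, 46.7, 37.2 and 60.6 CPM in digested roots. The lowest digested library was above the highest intact one. The log2 fold change was 2.26 (SE 0.35, adjusted p = 6.80e-06), or 4.80-fold.

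The remaining named factor, OsHsfC1b of the plant-specific class C, was seen in intact roots only. It had 18, 6, 2 and 7 counts in intact replicates 1 to 4, or 2.74 CPM over the group, and 0 counts in each digested library. The limit that 0 counts allow in the pooled digested libraries (3 counts) was 3.43 CPM, above the intact level, so a difference was not detectable at this depth.

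Among the heat shock factors without a name, LOC_Os03g12370 had the smallest standard error. It was at 16.9, 14.6, 13.3 and 15.7 CPM in intact and at 215, 169.6, 130.1 and 257 CPM in digested roots, with no overlap. The log2 fold change was 3.66 (SE 0.24, adjusted p = 3.61e-13), or 12.7-fold, which made it the most abundant heat shock factor of digested roots.

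LOC_Os09g28354 changed by about as much on average but less evenly. It was at 7.19, 8.13, 7.18 and 8.97 CPM in intact and at 153, 113, 27.9 and 106 CPM in digested roots. Digested replicate 3 stood lowest, with 3 counts, and still lay above all intact libraries. The log2 fold change was 3.76 (SE 0.31, adjusted p = 6.33e-11).

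LOC_Os04g48030 was at 3.24, 3.66, 3.59 and 5.24 CPM in intact and at 13.2, 39.3, 37.2 and 30.3 CPM in digested roots, with a log2 fold change of 2.89 (SE 0.44, adjusted p = 3.80e-06). Here digested replicate 1 was the low library and the groups did not overlap. This locus too passed the filter through its digested level alone. LOC_Os09g35790 was at 22.3, 15.9, 19.0 and 17.2 CPM in intact and at 87.7, 83.6, 158 and 136 CPM in digested roots, with a log2 fold change of 2.53 (SE 0.27, adjusted p = 7.71e-09). For this locus the shallow digested replicates 3 and 4 were the high ones, and all 4 digested libraries were above the intact ones.

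**Figure D2:**
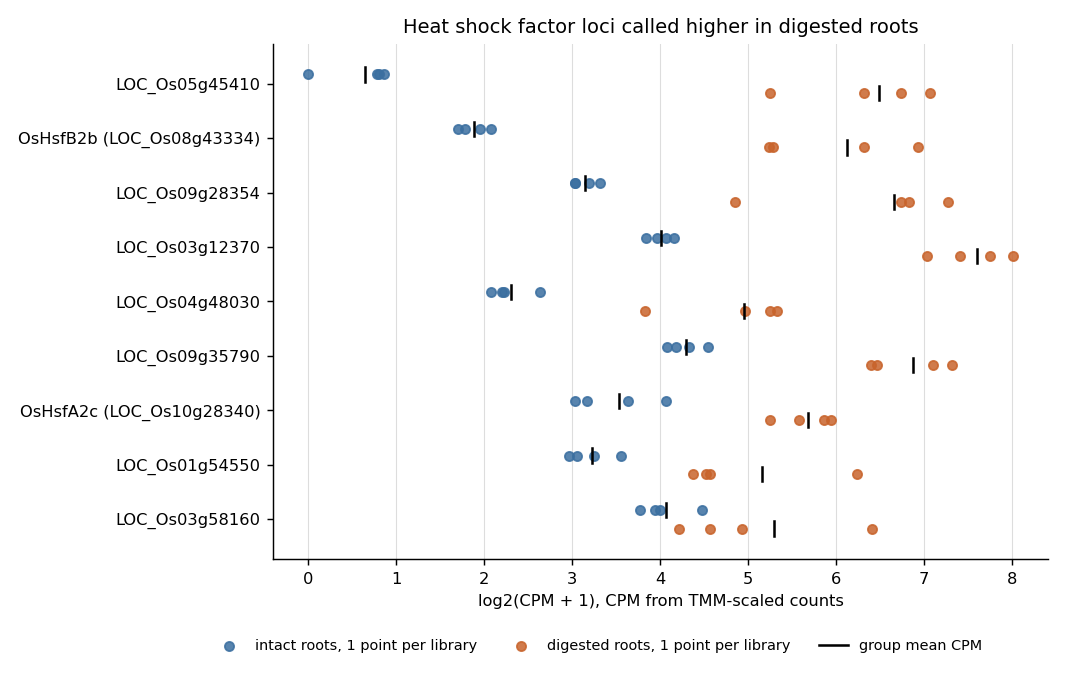
Levels of the 9 heat shock factor loci called higher in digested roots, as log2(CPM + 1) on the x axis, with 1 point per library (blue, 4 intact; orange, 4 digested) and black ticks for the group mean. The groups are apart in 8 loci and overlap in LOC_Os03g58160, and in LOC_Os01g54550 a single digested library (74.3 CPM) lies away from the other digested ones.

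The other called factors, given here after their values were seen, had smaller changes that leaned on digested replicate 3. LOC_Os01g54550 was at 10.8, 7.32, 6.82 and 8.48 CPM in intact and at 21.9, 19.7, 74.3 and 22.7 CPM in digested roots, with a log2 fold change of 1.76 (SE 0.44, adjusted p = 0.00190). The groups were apart, and without digested replicate 3 the log2 fold change was 1.23 (adjusted p = 0.0352). LOC_Os03g58160 was at 21.2, 12.6, 14.4 and 15.0 CPM in intact and at 17.5, 29.5, 83.6 and 22.7 CPM in digested roots, with a log2 fold change of 1.05 (SE 0.40, adjusted p = 0.0382). Its groups overlapped, and the call was lost in 14 alternatives. Without digested replicate 3 its log2 fold change was 0.55 (adjusted p = 0.324), and leaving out digested replicate 2 or 4 or intact replicate 2, 3 or 4 gave adjusted p-values of 0.137, 0.0560, 0.0951, 0.0821 and 0.0935.

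The 6 tested heat shock factors that were not called had log2 fold changes of -1.03 to -0.13 and adjusted p-values of 0.274 to 0.825. They included both of the most abundant factors of intact roots. LOC_Os03g63750 was at 47.5, 41.1, 36.2 and 47.9 CPM in intact and at 26.3, 32.0, 46.5 and 45.4 CPM in digested roots, with overlapping groups (log2 fold change -0.31, SE 0.30, adjusted p = 0.443). LOC_Os06g35960 was at 45.7, 42.7, 38.7 and 29.9 CPM in intact and at 21.9, 14.7, 74.3 and 75.7 CPM in digested roots (log2 fold change -0.13, SE 0.39, adjusted p = 0.825). The digested libraries of LOC_Os06g35960 split, with the shallow replicates 3 and 4 above and the deeper replicates 1 and 2 below all intact ones, and with the shallow replicates left out it was called lower (log2 fold change -1.25, adjusted p = 0.0241). The other not-called loci were LOC_Os02g29340, LOC_Os07g44690, LOC_Os09g28200 and LOC_Os02g13800, with 4 to 11 counts over the digested libraries.

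The order of the factors by level differed between the groups. Of all counts on heat shock factors in intact roots, LOC_Os03g63750 took 19.4% ± 2.07 (SD, n = 4) and LOC_Os06g35960 17.6% ± 2.59, and these were the most abundant loci. In digested roots they took 4.33% ± 0.916 and 5.24% ± 3.45, while LOC_Os03g12370 took 22.4% ± 5.59, up from 6.80% ± 0.395. LOC_Os05g45410 went from 0.271% ± 0.181 to 10.5% ± 5.29 and from the 21st to the 4th place. The 9 loci called higher, which were chosen on this same contrast, made up 38.4%, 35.6%, 37.4% and 38.2% of the heat shock factor counts in intact replicates 1 to 4 and 86.8%, 86.1%, 80.0% and 82.4% in digested replicates 1 to 4. The replicates of a group had similar shares although single loci varied between them.

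**Figure D3:**
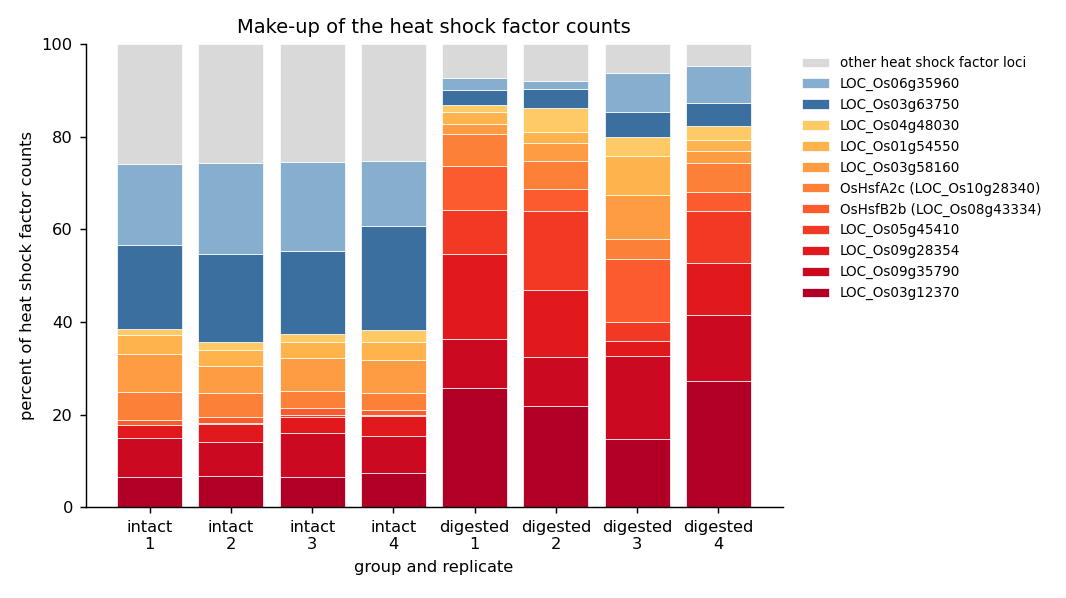
Make-up of the heat shock factor counts of each library, in percent of all counts on the 25 loci (y axis), for intact replicates 1 to 4 and digested replicates 1 to 4 (x axis). Yellow to red segments are the 9 loci called higher, blue segments LOC_Os03g63750 and LOC_Os06g35960 and grey the rest, and the yellow to red part grows from 35.6% to 38.4% of the intact to 80.0% to 86.8% of the digested counts.

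The untested factors had at most 52 counts over the intact and 10 over the digested libraries. Of these 10 loci, 2 (LOC_Os06g36930 and LOC_Os08g36700) had no count in any library, 3 had counts in intact roots alone (OsHsfC1b, and LOC_Os03g25120 and LOC_Os01g43590 with 17 and 14 counts, each under the limit set by the digested depth), and 5 had counts in both. LOC_Os02g32590, singled out after its values were seen, had 1, 0, 1 and 1 counts in intact and 4, 4, 1 and 1 in digested replicates. In CPM this was 0.360, 0, 0.359 and 0.249 against 17.5, 9.83, 9.29 and 7.57, with every digested library above the intact ones. Because 1 count stood for 2.46 to 9.29 CPM in digested libraries, any count there lies above the intact values of this locus. The separation therefore shows only that each digested library had at least 1 count. Pooled over the libraries, the locus was 45.9-fold higher in digested roots (95% interval 11.8 to 259, counting error only). Without a filter on low counts it was called higher, with an adjusted p of 7.26e-07. LOC_Os03g06630 had 20 and 8 counts and a pooled ratio of 5.51 (2.10 to 13.0), and it was called higher without the filter (adjusted p = 0.0186). Its groups overlapped, with 3, 5, 0 and 0 counts in digested replicates 1 to 4. Digested replicates 1 and 2 were above and replicates 3 and 4 below all intact libraries. LOC_Os07g08140 had 52 counts in the deeper intact and 1 in the digested libraries, a pooled ratio of 0.265 (0.00658 to 1.54). Every digested library lay below every intact one, and without the filter the locus was not called (adjusted p = 0.244). Digested replicates 1, 3 and 4 had 0 counts, and 1 count stood there for 4.38, 9.29 and 7.57 CPM. A single count would have put each of them above the lowest intact library (3.25 CPM).

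HSP101, the aggregate-dissolving chaperone, was barely detected. It had 1, 1, 3 and 6 counts in intact and 0, 3, 0 and 2 counts in digested replicates, which is 0.914 and 5.72 CPM over the groups. Digested replicates 2 and 4 were above all intact libraries and replicates 1 and 3 were at 0, so the groups overlapped. The pooled ratio was 6.26 with a 95% interval of 1.70 to 19.5 that covers counting error only. HSP101 did not pass the filter for the test. Its adjusted p was 0.0512 without a filter and 0.0289 with a filter of 1 CPM in 4 libraries, so it was called under 1 of these settings and not under the other.

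HSP90 was abundant in both groups, and no change was called. LOC_Os08g39140 was at 526, 460.4, 549 and 444 CPM in intact and at 434, 565, 381 and 386 CPM in digested roots, with a log2 fold change of -0.13 (SE 0.17, adjusted p = 0.579). The groups overlapped, and with total counts as the scaling the locus was called lower (log2 fold change -0.44, adjusted p = 0.0366). LOC_Os09g30412 was at 432, 464, 486 and 385 CPM in intact and at 715, 521, 195 and 364 CPM in digested roots, with a log2 fold change of 0.08 (SE 0.25, adjusted p = 0.827). Its digested libraries spread over 3.66-fold and its intact ones over 1.26-fold. The 2 other HSP90 loci were untested. LOC_Os09g30418 had 90 counts in intact and 1 in digested roots, a pooled ratio of 0.153 (95% counting interval 0.00383 to 0.874), and LOC_Os04g01740 had 4 and 1. For LOC_Os09g30418 the adjusted p was 0.0452 without a filter and 0.0463 with the filter of 1 CPM, and it passed the usual filter but was not called without digested replicate 1, 2, 3 or 4 (0.123, 0.0576, 0.0765 and 0.0904) and without both of the shallowest (0.141).

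The most abundant member of the whole set was the HSP70 locus LOC_Os11g47760, and it rose in digested roots. It was at 959.9, 936, 987 and 768 CPM in intact and at 1578, 1435, 1961 and 1568 CPM in digested roots. All digested libraries were above all intact ones. The log2 fold change was 0.83 (SE 0.16, adjusted p = 7.67e-05), or 1.78-fold. The locus held 52.6% of the HSP70 counts in intact and 56.1% in digested roots.

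The other called HSP70 loci, named after their values were seen, were less even. LOC_Os03g16860 was at 135, 172, 275 and 197 CPM in intact and at 833, 622, 269.5 and 348 CPM in digested roots, with a log2 fold change of 1.47 (SE 0.33, adjusted p = 0.00411). Digested replicate 3 fell within the intact range, and without digested replicate 2 the adjusted p was 0.0594. LOC_Os12g14070 was at 39.6, 46.4, 48.4 and 35.2 CPM in intact and at 92.1, 76.2, 27.9 and 114 CPM in digested roots, with a log2 fold change of 0.92 (SE 0.27, adjusted p = 0.00787). Digested replicate 3 was below all intact libraries. Leaving out intact replicate 4 or digested replicate 1, 2 or 4 took its adjusted p to 0.0549, 0.0681, 0.0737 and 0.0783, and total counts as the scaling to 0.0635.

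LOC_Os12g38180 was the only member called lower. It was at 32.0, 35.0, 27.6 and 31.4 CPM in intact and at 26.3, 12.3, 9.29 and 7.57 CPM in digested roots, and its log2 fold change was -1.08 (SE 0.39, adjusted p = 0.0312). The groups did not overlap, but the digested values rest on 6, 5, 1 and 1 counts. Without digested replicate 2 or 4 the adjusted p was 0.102 and 0.0569.

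The 5 HSP70 loci that were tested and not called had log2 fold changes of -0.48 to 0.50. LOC_Os02g53420 was nearest to the threshold (log2 fold change 0.50, SE 0.21, adjusted p = 0.0649), at 185 ± 45.1 CPM (SD, n = 4) in intact and at 264 ± 76.3 CPM in digested roots. Without intact replicate 1 it was called higher (log2 fold change 0.64, adjusted p = 0.0132). LOC_Os03g60620 was at 254 ± 19.3 and 311 ± 68.4 CPM (log2 fold change 0.27, SE 0.18, adjusted p = 0.250). LOC_Os01g62290, LOC_Os03g02260 and LOC_Os05g23740 had means of 33.1 to 39.1 CPM in intact and 29.2 to 39.5 CPM in digested roots. LOC_Os01g62290 was at 17.5, 14.7, 46.5 and 37.9 CPM in digested replicates 1 to 4, with the deeper replicates 1 and 2 below all intact libraries. Without both of the shallowest digested libraries its log2 fold change was -1.15 (adjusted p = 0.0674). Of the 2 untested loci, LOC_Os05g38530 had 36 counts in intact and 10 in digested roots, a pooled ratio of 3.82 (1.69 to 7.86), and LOC_Os03g16920 had 14 and 0, below the limit set by the digested depth. Without a filter LOC_Os05g38530 had an adjusted p of 0.0373, and it was not called in any other alternative in which it could be tested, with an adjusted p of 0.0674 under the filter of 1 CPM, of 0.196, 0.440, 0.0512 and 0.109 without digested replicates 1 to 4, and of 0.0746 without both of the shallowest.

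**Figure D4:**
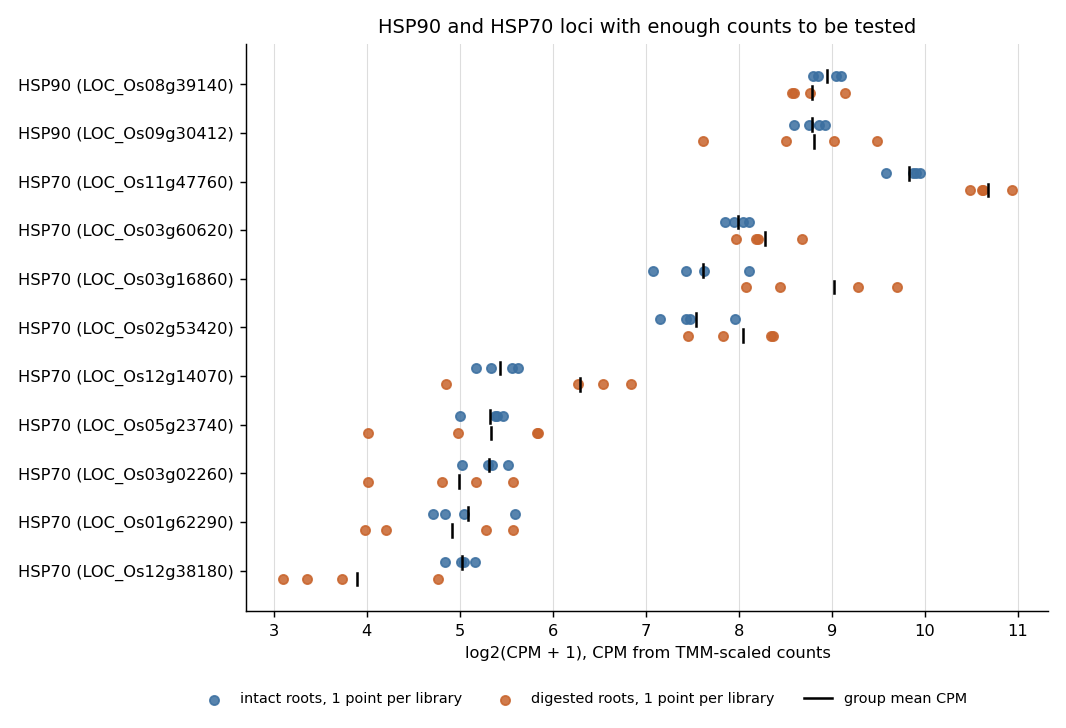
Levels of the tested HSP90 (2) and HSP70 (9) loci as log2(CPM + 1) on the x axis, with 1 point per library (blue, 4 intact; orange, 4 digested) and black ticks for the group mean. The groups are apart in LOC_Os11g47760, where digested roots are higher, and in LOC_Os12g38180, where they are lower, and they overlap in the other 9 loci.

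Groups of libraries that did not overlap, with digested roots higher, were found in 9 of the 26 tested members, 8 of them heat shock factors, against 17.4% of all tested genes. In 1 tested member the groups were apart with digested roots lower, and 37.2% of all tested genes were apart in either direction. The 8 factors include LOC_Os05g45410, OsHsfB2b and LOC_Os04g48030, which passed the filter through their digested level alone. Summed over their loci, heat shock factors stood at 223 ± 26.1 CPM (SD, n = 4) in intact and at 860.4 ± 71.4 CPM in digested roots, which is 3.86-fold, with ranges of 202 to 261 and 779 to 947 CPM. HSP70 stood at 1735 ± 159 and 2928 ± 331 CPM, or 1.69-fold, and its ranges of 1546 to 1902 and 2537 to 3248 CPM did not overlap either. HSP90 stood at 944 ± 82.8 and 891 ± 274 CPM. The HSP90 sums of the digested libraries were 1149, 1091, 576 and 749.7 CPM in replicates 1 to 4, so that the deeper digested libraries were above all intact ones and the shallow ones below. These sums are descriptions and were not tested.

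**Figure D5:**
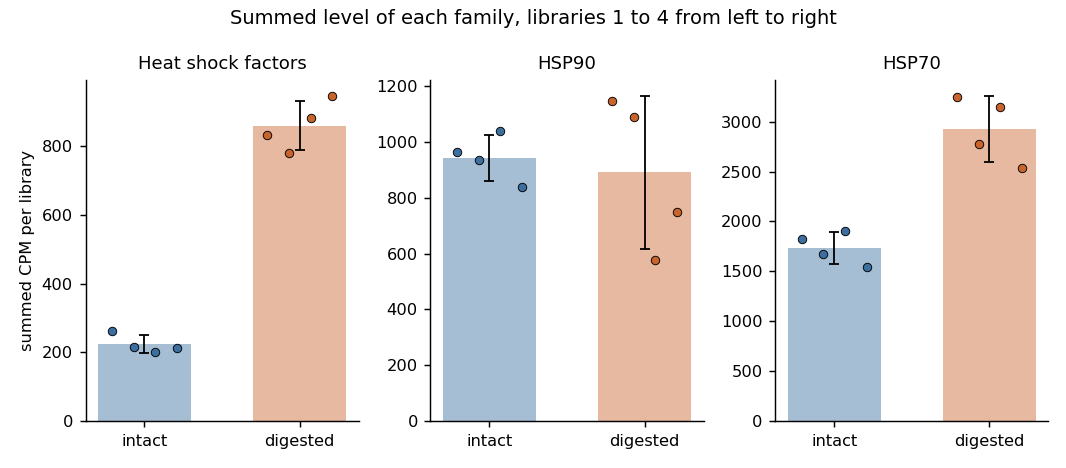
Summed CPM per library of heat shock factors, HSP90 and HSP70 (y axis from 0, own scale in each panel). Bars are the means of 4 libraries, error bars the SD and points the libraries 1 to 4 from left to right. Heat shock factors are at 202 to 261 CPM in intact and 779 to 947 CPM in digested libraries, and the digested HSP90 libraries scatter on both sides of the intact ones.

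Small heat shock proteins, which keep unfolding proteins soluble and are classical targets of heat shock factors, were counted beside the members. Of 12 listed loci, 2 had no count, 4 could be tested and all 4 of these were higher in digested roots, with log2 fold changes of 1.30 to 3.21, against 20.0% of all tested genes. Without digested replicate 2 this count was 2, and with intact counts thinned to the digested depths it was 1. The other loci with counts had too few for a test, and a locus can pass the filter through its digested level alone. The assignment of these loci to the family comes from general knowledge and not from the files.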

How the data were processed

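RNA of 4 intact and 4 digested Xkitaake root samples was measured by 3′ tag sequencing and unique molecular identifiers were used. The authors mapped reads on release 7 of the MSU rice genome and deposited whole counts per gene from HTSeq, without normalization, 1 file per library. The submitters' processing notes also list STAR, UMI-tools and edgeR, without versions. The 5 summary rows of each file, which name no gene, entered neither library sizes nor tests, and 13.0% to 14.9% of a file's reads fell on no gene.

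Groups and replicate numbers came from the labels. The test was the two-sided quasi-likelihood F test of edgeR 4.0.16 (R 4.3.3), fitted robustly on the 13104 genes that filterByExpr kept, with TMM factors, a prior count of 0.125 and Benjamini-Hochberg adjustment over all of them. The direction is digested over intact. A standard error is the size of the log2 fold change over the square root of F. CPM came from tested-gene library sizes and TMM factors. The floor for 0 counts was 3 counts over a group, worth 0.249 CPM in intact roots and 3.43 CPM in digested ones. Pooled ratios have exact 95% intervals, and intervals and floors cover counting error only. The script was tested on simulated data in which far fewer genes changed than were called here. That test does not check the scaling between the groups.

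The members and lists were chosen with earlier results of these data known. Members given library by library were the 4 named loci, those with an adjusted p under 0.05 and a log2 fold change of at least 2 in size, and the most abundant locus of each family. No locus matched the reference name table, so no coordinates or sequences are given. Alternatives were other scalings (RLE, total counts, upper quartile), no filter or one of 1 CPM in 4 libraries, DESeq2 1.42.0, limma-voom (limma 3.58.1), an adjusted p under 0.01, a prior count of 2, a replicate block, thinned intact counts and each library left out. Leaving out both of the shallowest digested libraries was added after seeing the data.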

Additional observations from a re-analysis of the deposited data

Results flagged for a closer look

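Among 50 sets of 4 libraries compared for a sample far from the others, 2 were above Dixon's 95% critical ratio, and chance alone would give 2.5. LOC_Os05g45410 was at 0 CPM in intact replicate 1, with the other intact libraries at 0.718 to 0.813 CPM, a gap of 2 counts. LOC_Os01g54550 was at 74.3 CPM in digested replicate 3, with the other digested libraries at 19.7 to 22.7 CPM, and the value of 74.3 CPM rests on 8 counts.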

How the results depend on the processing

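No called member changed direction under any alternative. The 7 heat shock factors with an increase of at least 2 on the log2 scale kept their calls in every alternative in which they could be tested, and 14, 6, 5, 1 and 1 alternatives ended the calls of LOC_Os03g58160, LOC_Os12g14070, LOC_Os12g38180, LOC_Os01g54550 and LOC_Os03g16860. LOC_Os01g54550 lost its call when both of the shallowest digested libraries were left out (log2 fold change 1.20, adjusted p = 0.0672), which also left 0 chaperones lower and called 1 heat shock factor lower (LOC_Os06g35960). Members lower, all of them chaperones, numbered 2 with total counts, without a filter and with the filter of 1 CPM, and 0 at an adjusted p under 0.01, after thinning and with the replicate block. Between intact and digested libraries of the same replicate number the correlations of deviations were -0.31, 0.03, -0.14 and -0.07. With the low counts of the digested libraries these values cannot decide whether the replicates were paired. The replicate block also took LOC_Os03g58160 to an adjusted p of 0.0654 and LOC_Os12g38180 to 0.0676. Thinning the intact counts to the digested depths left 9 members among 4609 testable genes, with 5 members and 2 heat shock factors higher, 2 past a log2 fold change of 2 and 1 small heat shock protein higher, so depth limits which members can be called. Members past a log2 fold change of 2 numbered 10 without a filter and 11 with the filter of 1 CPM. They numbered 6 with total counts and with upper-quartile factors, where OsHsfA2c was at 1.95 and 1.99. The median log2 fold change of the tested members, 0.39, was 0.082 with total counts, 0.13 with upper-quartile factors, 0.58 with the filter of 1 CPM and 0.70 after thinning. RLE, total counts and upper-quartile factors shifted all genes by -0.14, -0.31 and -0.27. They gave log2 ratios of the summed heat shock factors of 1.82, 1.65 and 1.71 (1.95 with TMM). Total counts and upper-quartile factors gave 0.22 and 0.27 for the summed chaperones (0.51 with TMM) and 0.46 and 0.51 for HSP70 (0.75 with TMM). Leaving out 1 library at a time gave 9 to 11 members higher and 0 to 1 lower, 7 to 9 heat shock factors higher, 1 to 4 chaperones higher and 0 to 1 lower, 2 to 4 small heat shock proteins higher and a median of 0.21 to 0.84. The lowest chaperone count was without digested replicate 2, the highest, with LOC_Os02g53420 added, without intact replicate 1, and 0 members were lower without digested replicate 2 or 4. In the digested libraries 1 count stood for 2.46 to 9.29 CPM, which limits what can be seen of the 15 untested members in digested roots.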
